A study of Mus musculus with 18 samples.

Results

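Acute-phase and activated-vessel genes were followed in spinal dorsal horn and colon of mice with bone cancer pain. The set holds 10 genes: Lrg1, Lcn2, Vwf, Selp, Sele, Icam1, Vcam1, Ch25h, Ptgs2 and Pla2g4e. All 10 were found by symbol in both count tables, among 15410 symbols in either table. They were chosen by their dorsal horn read counts, in which Lrg1, Lcn2 and Vwf had been read as high in cancer mice and low after nivolumab. Their dorsal horn values are therefore given as a description, with no test. The tests concern the colon, the difference between tissues and other genes of the same pathways.

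The mice were wild type and fell into 3 groups: sham animals given control IgG, cancer animals given control IgG, and cancer animals given nivolumab, an antibody raised against human PD-1, an inhibitory receptor on T cells. These groups are called sham, cancer and nivolumab below, and each had 3 libraries per tissue, 18 in all. The labels name no strain, sex, age, tumour line, antibody dose or sampling time, and do not tie the 2 tissues to the same animals. Nor do they say that libraries of a group come from separate animals, so the spread behind each p-value may be technical.

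The acute-phase response is the change in secreted proteins that inflammation sets off, driven mainly by interleukin-6 acting through STAT3 and by interleukin-1 and TNF acting through NF-kappa B. The same cytokines activate endothelium, the cell layer lining vessels, which then displays selectins that slow passing leukocytes and the immunoglobulin-type ligands ICAM-1 and VCAM-1 that arrest them. Endothelial cells store von Willebrand factor and P-selectin together in Weibel-Palade bodies, and release both within minutes. Arachidonic acid freed from membranes feeds prostaglandin synthesis, which sensitises pain pathways.

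Totals ran from 20896854 to 30803957 counts in colon and from 21855085 to 29071908 in dorsal horn, so that 3 counts, taken as the detection floor, stand for 0.0974 to 0.144 CPM (counts scaled to the library total) in colon and 0.103 to 0.137 in dorsal horn. Colon epithelium markers (10 of 12 in the table) summed to between 11254 and 24560 CPM in colon, against 4.64 to 58.9 for the 9 in the dorsal horn table. Neuron markers (10 of 10) summed to between 8221 and 8892 CPM in dorsal horn. Within this sum, edgeR called 2 of the 10 higher and 5 lower in nivolumab than in cancer (adjusted p under 0.05). Scn10a, a sodium channel of sensory neurons whose cell bodies lie in the dorsal root ganglion, was at 0 to 0.116 CPM in the dorsal horn libraries sham 1, sham 2, cancer 1 and cancer 2. It was at 87.7 in sham 3, at 106.2 in cancer 3 and between 205.8 and 397.9 in the nivolumab libraries. Of 14 ganglion markers, all in the table, 4 were higher in nivolumab than in cancer dorsal horn by edgeR (adjusted p under 0.05), and the summed level was 3991 to 5165 CPM in nivolumab, 2117 to 2971 in cancer and 2690 to 3382 in sham. This difference runs beside every dorsal horn comparison with nivolumab, and its part in them was not tested. In bulk tissue, fewer cells of a type and less RNA per cell cannot be told apart.

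Promoter sequence is shown for 4 members: the secreted proteins Lrg1 and Lcn2, whose nivolumab libraries lay outside the sham range in both tissues, and Selp and Icam1, vessel genes that hold a searched motif. Each is the 250 bases before the annotated start, 5′ to 3′ on the gene's strand, from RefSeq on GRCm38.p6. The table held 8 of the 10 members, and not Vcam1 and Vwf. Capitals mark a STAT-type match (TTCNNNGAA) or an AP-1 match (TGANTCA).
Lrg1: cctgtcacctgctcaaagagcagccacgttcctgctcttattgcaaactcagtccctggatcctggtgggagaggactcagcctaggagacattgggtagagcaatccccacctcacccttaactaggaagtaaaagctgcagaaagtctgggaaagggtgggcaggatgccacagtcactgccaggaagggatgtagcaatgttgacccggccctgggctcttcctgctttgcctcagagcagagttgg
Lcn2: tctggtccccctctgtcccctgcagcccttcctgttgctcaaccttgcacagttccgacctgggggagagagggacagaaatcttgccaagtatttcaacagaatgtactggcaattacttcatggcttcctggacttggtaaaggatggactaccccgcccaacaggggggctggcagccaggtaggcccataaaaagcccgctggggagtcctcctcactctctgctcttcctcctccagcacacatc
Selp: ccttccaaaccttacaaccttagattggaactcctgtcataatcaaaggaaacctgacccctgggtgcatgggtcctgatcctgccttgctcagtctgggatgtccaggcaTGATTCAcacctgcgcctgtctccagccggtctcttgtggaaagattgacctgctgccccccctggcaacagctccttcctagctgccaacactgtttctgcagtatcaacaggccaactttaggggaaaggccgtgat
Icam1: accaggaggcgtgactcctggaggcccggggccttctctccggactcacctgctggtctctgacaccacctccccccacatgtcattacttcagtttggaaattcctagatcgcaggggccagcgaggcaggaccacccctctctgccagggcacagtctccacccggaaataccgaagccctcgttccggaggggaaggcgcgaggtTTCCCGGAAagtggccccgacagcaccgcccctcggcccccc
These windows lie at chr17:56121947-56122196 (minus strand), chr2:32387740-32387989 (minus strand), chr1:164115014-164115263 (plus strand) and chr9:21015690-21015939 (plus strand). By the GENCODE coordinates given below, the Lcn2 window lies wholly inside the gene, and the Lrg1 window overlaps the first bases of its gene. RefSeq and GENCODE thus place these starts differently. Both strands were searched for the 2 motifs and for a kappa B motif. The kappa B pattern was GGGRNWYYCC, with R for A or G, W for A or T, Y for C or T and N for any base. A sequence without the opening GGG, such as tggaaattcc in the Icam1 window, could not match it. Icam1 held TTCCCGGAA from 42 to 34 bases before the start, and Selp held TGATTCA from 139 to 133 bases before it. Sele, whose gene lies next to Selp, held a STAT-type match, TTCCCAGAA, and an AP-1 match, TGACTCA. The windows of Lrg1, Lcn2, Ch25h, Ptgs2 and Pla2g4e held no match to any of the 3, which says only that those letters are not in these windows. Over 32851 windows of the same length, 7.02% held the STAT-type motif, 3.90% the kappa B motif and 6.75% the AP-1 motif. No 2 matches overlapped in the windows printed here.

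In the dorsal horn, the split among these genes lay between nivolumab and the other groups rather than between cancer and sham. All 8 members that passed the expression filter had overlapping cancer and sham libraries (0 with every cancer library above every sham library, as 17.4% of all 13609 genes tested had, and 0 with every one below, as 3.95% had). Every nivolumab library was below every cancer library for 6 of the 8 (23.2% of all genes) and below every sham library for 7 of the 8 (13.0% of all genes). Selp and Sele did not pass the filter. These counts describe the choice of the genes, since the rule used these contrasts.

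Lrg1 encodes leucine-rich alpha-2 glycoprotein 1, a secreted protein of liver, neutrophils and inflamed endothelium that modifies TGF-beta signalling in vessels. In dorsal horn it was at 3.89, 5.37 and 8.70 CPM in the sham libraries 1 to 3, at 4.46, 7.75 and 20.6 in cancer, and at 0.655, 0.998 and 1.58 in nivolumab. The cancer and sham ranges overlapped, while every nivolumab library lay below all 6 others. The fitted fold, on TMM-scaled counts, was 9.72 lower in nivolumab than in cancer (log2 fold change −3.28, SE 0.64) and 5.64 lower than in sham (−2.50, SE 0.64). Cancer against sham gave 0.79 (SE 0.57), and −0.03 without the library cancer 3.

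Lcn2 encodes lipocalin-2, a siderophore-binding protein of neutrophil granules that inflamed epithelium and reactive astrocytes also secrete. Its dorsal horn levels were 17.4, 14.8 and 42.3 CPM in sham, 5.50, 31.3 and 52.7 in cancer, and 2.36, 2.06 and 4.49 in nivolumab. The lowest cancer library was below all sham libraries and the highest was above them, and nivolumab lay below both groups. The fitted log2 difference from cancer to nivolumab was −3.28 (SE 0.89) and from sham to nivolumab −3.10 (SE 0.89). Cancer against sham gave 0.18 (SE 0.79), which became −0.49 without cancer 3.

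Vwf encodes von Willebrand factor, the large multimer that tethers platelets to injured vessel walls. It read 54.7, 55.0 and 79.7 CPM in sham, 48.2, 48.6 and 144.6 in cancer, and 18.1, 21.9 and 23.4 in nivolumab dorsal horn. In cancer, 2 libraries were below every sham library and cancer 3 was above every other library of the tissue. Nivolumab was the tightest group (21.1 ± 2.74, SD, n = 3), lying 3.07-fold below sham and 3.70-fold below cancer in the fit. The log2 difference from cancer to nivolumab was −1.89 (SE 0.46) and −1.17 without cancer 3, and cancer against sham changed from 0.27 to −0.44.

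Vwf did not follow the other markers of endothelium. The 13 of 15 endothelium markers in the table summed to 262 to 318 CPM in sham, 196 to 339 in cancer and 268 to 305 in nivolumab dorsal horn, and 0 of the 13 passed edgeR's test in any of the 3 contrasts. Neutrophil markers (11 of 12 in the table) summed to 16.8 to 133 CPM in sham, 24.7 to 247 in cancer and 19.7 to 54.0 in nivolumab, overlapping between all groups. None of the 11 passed in any contrast, and their log2 differences were negative for 11 of 11 in nivolumab against sham (median −1.08) and 9 of 11 in nivolumab against cancer (median −1.35). Platelet and megakaryocyte markers (8 of 8) summed to 10.8 to 22.0 CPM in sham, 18.3 to 29.1 in cancer and 32.8 to 46.9 in nivolumab. Only 3 of the 8 passed the filter, with 2 positive and 1 negative log2 differences in each contrast with nivolumab. F2rl2 was the 1 gene of this list called, and it was higher in nivolumab than in sham. Whether other cells of the tissue also express the genes of this list was not examined, so the sum is not read as platelet content. Red blood cell markers (5 of 7) summed to 717 to 1230 CPM in sham, above the 113 to 225 of cancer and the 222 to 290 of nivolumab. Of these 5, 4 were called lower in cancer than in sham, and 5 lower in nivolumab than in sham. The part of these cells in the members' levels was not tested.

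Selp encodes P-selectin, the partner of von Willebrand factor in Weibel-Palade bodies. It was near the floor in dorsal horn, with 0, 6 and 0 counts in sham, 7, 10 and 18 in cancer, and 0 in each nivolumab library. Its summed level in cancer was 6.02 times that in sham (95% counting interval 2.51 to 17.5), and the nivolumab libraries held no count. Every cancer library was above every library of both other groups. The interval covers counting error only, not the spread between libraries.

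Sele encodes E-selectin, which endothelium makes only after activation. It had 0, 3 and 5 counts in sham, 6, 0 and 8 in cancer, and 0, 0 and 5 in nivolumab dorsal horn. The groups overlapped, and the ratio of cancer to sham was 1.81 (95% interval for counting error only, 0.708 to 4.97). Counts this low do not allow the groups to be compared, and the ratio is given as a description.

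The adhesion ligands differed from each other. Icam1, the ligand of leukocyte beta-2 integrins, was at 3.81, 7.40 and 10.7 CPM in sham, 3.32, 3.02 and 7.14 in cancer, and 2.71, 2.13 and 2.80 in nivolumab dorsal horn. Nivolumab lay below both groups, with a log2 difference of −0.78 (SE 0.42) from cancer, which was −0.29 without cancer 3, and of −1.56 (SE 0.42) from sham. Cancer overlapped sham. Vcam1, the ligand of alpha-4 integrins, was at 22.4, 25.5 and 16.8 CPM in sham, 25.1, 19.0 and 23.5 in cancer, and 21.3, 19.1 and 18.4 in nivolumab, with all groups overlapping. Its 3 fitted log2 differences were −0.01, −0.17 and −0.18, each with an SE of 0.16.

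Among the lipid enzymes, Ch25h makes 25-hydroxycholesterol, an oxysterol induced by interferon and inflammation. It was at 0.635, 0.881 and 3.90 CPM in sham, 0.285, 2.59 and 7.60 in cancer, and 0, 0.482 and 0.442 in nivolumab dorsal horn. Nivolumab lay below sham but not below the library cancer 1. The fitted log2 difference from cancer to nivolumab was −3.38 (SE 1.34). The summed cancer level was 9.69 times that of nivolumab, with a 95% counting interval of 6.45 to 15.1. That interval leaves out the wide spread between libraries and covers counting error only. Cancer against sham gave 0.86 (SE 1.15) and turned to −0.40 without cancer 3.

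Ptgs2 encodes cyclooxygenase-2, the inducible enzyme that starts prostaglandin synthesis and is also made by active neurons. Its levels were 1.94, 4.18 and 3.46 CPM in sham, 1.96, 1.98 and 3.66 in cancer, and 0.873, 1.07 and 0.957 in nivolumab dorsal horn. Every nivolumab library lay below all others, by 1.34 (SE 0.36) from cancer and 1.76 (SE 0.36) from sham on the log2 scale. All cancer values lay within the sham range (log2 difference −0.42, SE 0.34).

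Pla2g4e, a calcium-dependent acyltransferase of the cytosolic phospholipase A2 family that makes N-acyl phosphatidylethanolamines, differed from the rest. It was at 10.4, 8.43 and 19.2 CPM in sham, 11.3, 76.7 and 73.3 in cancer, and 5.55, 8.19 and 6.70 in nivolumab dorsal horn. The libraries cancer 2 and cancer 3 were about alike and far above all others, whereas cancer 1 lay within the sham range. The log2 difference of cancer from sham was 2.01 (SE 0.69) and stayed between 1.66 and 2.50 under the alternatives run, including 1.66 without cancer 2. From cancer to nivolumab it was −2.94 (SE 0.73).

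**Figure D1:**
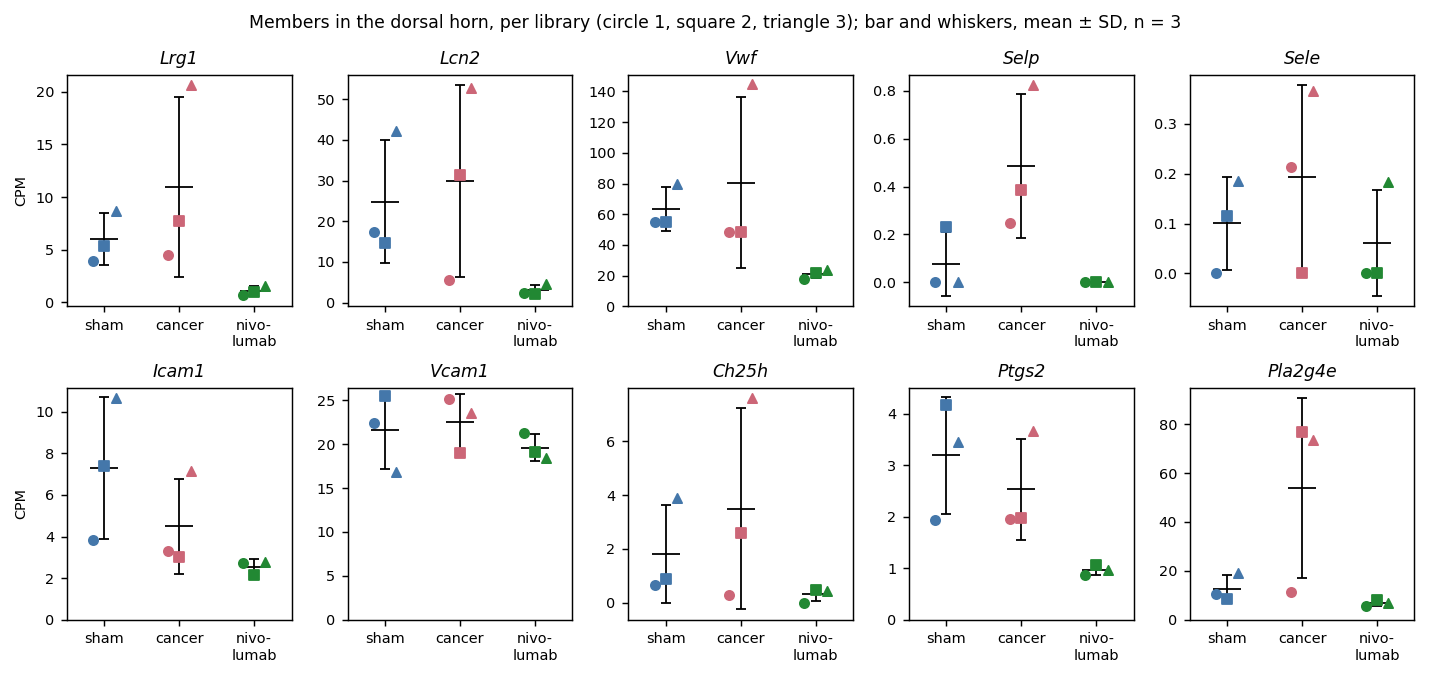
Levels of the 10 members in dorsal horn, in CPM on linear axes with their own scales, for sham, cancer and nivolumab libraries. Symbols are libraries 1 to 3 and bars with whiskers give the mean and SD (n = 3). Cancer overlaps sham in every panel but Selp, and the nivolumab libraries of Lrg1, Lcn2, Vwf, Icam1, Ptgs2 and Pla2g4e lie below both groups.

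The library cancer 3 was the highest of the tissue for Lrg1, Lcn2, Vwf and Ch25h, and sham 3 was the highest of its group for the same 4 genes. These are the libraries of those groups with Scn10a. With both left out, the nivolumab difference from cancer was −2.46 for Lrg1, −2.60 for Lcn2, −1.17 for Vwf, −2.12 for Ch25h and −2.66 for Pla2g4e. The difference from sham was −2.11, −2.46, −1.40, −1.26 and −0.49 for the same genes. In all 15 alternatives run, both nivolumab differences kept a negative sign for the 8 members fitted. The rule that chose the members used these contrasts, so the kept sign is a description and no support for the differences.

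In colon, Lrg1, Lcn2 and the selectins had higher mean levels in both cancer-bearing groups than in sham, and no member passed the test. Of the 9 members past the filter, which leaves out Pla2g4e, 0 were called by edgeR in cancer against sham (0% of all 13445 genes), 0 in nivolumab against cancer (0%) and 0 in nivolumab against sham (0%). At an unadjusted p under 0.05 there were 1468, 1323 and 867 genes in these contrasts, with 3, 0 and 4 members among them. DESeq2, run as an alternative, called 384, 186 and 144 genes and 3, 0 and 3 members, which were Lrg1, Lcn2 and Selp in both contrasts with sham. Colon libraries scattered more than those of dorsal horn, with a biological coefficient of variation of 0.376 against 0.170.

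Lrg1 in colon was at 3.51, 5.77 and 1.78 CPM in sham, 103.6, 61.0 and 15.2 in cancer, and 27.4, 101.8 and 90.9 in nivolumab. All 6 libraries of the cancer-bearing groups lay above all sham libraries. The log2 difference from sham was 4.06 (SE 0.79, edgeR adjusted p = 0.172) for cancer and 4.34 (SE 0.80, adjusted p = 0.322) for nivolumab, with DESeq2 adjusted p-values of 7.378e-07 and 1.323e-07. Nivolumab against cancer gave 0.29 (SE 0.69, edgeR adjusted p = 0.869). Lrg1 was the 1 member of 9 with cancer wholly above sham, where 5.53% of all genes were.

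Lcn2 in colon was at 2.53, 1.96 and 2.99 CPM in sham, 21.1, 127.2 and 2.06 in cancer, and 117.3, 21.1 and 68.7 in nivolumab. The library cancer 3 was at the sham level, and the nivolumab libraries were all above it. Against sham the log2 difference was 4.32 (SE 1.26, edgeR adjusted p = 0.308) for cancer and 4.82 (SE 1.29, adjusted p = 0.512) for nivolumab. DESeq2 gave adjusted p-values of 0.0182 and 0.00931. The cancer difference rested in part on cancer 2, without which it was 2.25.

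Selp in colon was at 1.01, 1.76 and 0.625 CPM in sham, 10.9, 10.3 and 0.670 in cancer, and 8.04, 5.54 and 20.7 in nivolumab. As for Lcn2, cancer 3 was within the sham range and the other 5 libraries of the cancer-bearing groups were above it. The log2 difference from sham was 2.71 (SE 0.93, edgeR adjusted p = 0.362) for cancer and 3.36 (SE 0.95, adjusted p = 0.549) for nivolumab, and DESeq2 gave 0.0461 and 0.0113. Sele had 0, 3 and 0 counts in sham, 12, 7 and 0 in cancer, and 8, 24 and 32 in nivolumab colon. Its summed level in nivolumab was 21.5 times that in sham (95% interval for counting error only, 7.04 to 107.1), and edgeR's adjusted p was 0.669. Lcn2, Lrg1, Sele and Selp, 4 of the 9 members, had every nivolumab library above every sham library, where 7.76% of all genes did. Sele passed the filter only through cancer-bearing libraries in which it was high, so its place in this count follows from the filter.

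No member had nivolumab wholly below sham (6.57% of all genes), and between nivolumab and cancer all 9 overlapped (8.23% of all genes were wholly higher and 7.01% wholly lower). The remaining vessel and enzyme genes had overlapping ranges in colon. Vwf was at 30.2, 40.3 and 26.8 CPM in sham, 74.6, 52.9 and 15.8 in cancer, and 24.3, 19.7 and 36.6 in nivolumab. Its log2 difference from cancer to nivolumab was −0.83 (SE 0.47, edgeR adjusted p = 0.552). Icam1 ranged from 11.1 to 29.7 CPM and Vcam1 from 10.4 to 29.9 over the 9 libraries, with the lowest value of each in cancer 3. Ptgs2 ranged from 6.15 to 22.5 CPM, with groups that overlapped.

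Ch25h was between 1.22 and 2.97 CPM in 8 colon libraries and at 0.0957 in cancer 3. Pla2g4e had 0, 5 and 0 counts in sham, 8, 95 and 4 in cancer, and 53, 6 and 9 in nivolumab. In each cancer-bearing group 1 library carried most of its counts. Its summed level in cancer was 27.5 times that in sham (95% counting interval 11.4 to 86.3), an interval for counting error only.

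**Figure D2:**
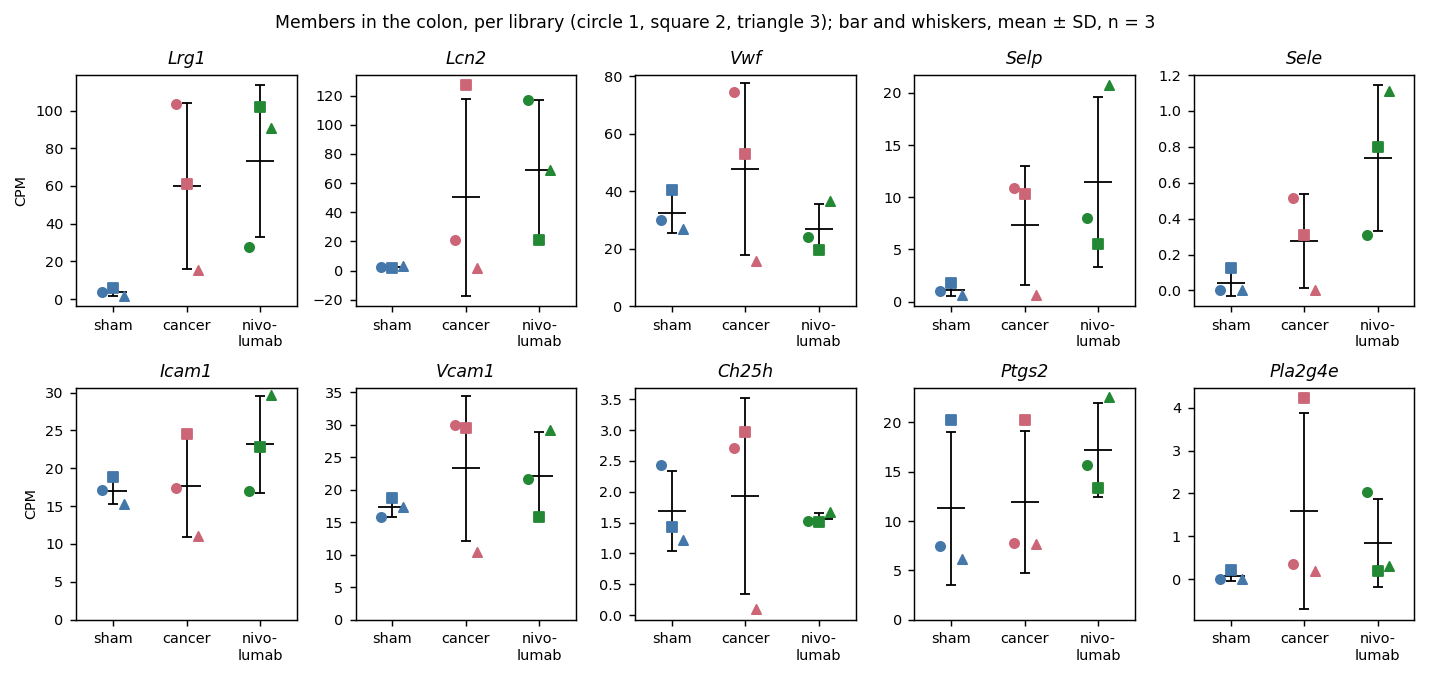
Levels of the 10 members in colon, in CPM on linear axes with their own scales, with libraries as symbols and the mean and SD as bars and whiskers (n = 3). Lrg1 is above sham in all 6 libraries of the cancer-bearing groups, and the triangle of the cancer group (library 3) lies at the bottom of its group in all 10 panels.

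Cell type markers were summed per library beside these values. Neutrophil markers (10 of 12 in the table) summed to 5.03 to 8.05 CPM in sham, 8.47 to 124 in cancer and 35.9 to 201 in nivolumab, with Ngp, Mpo and Mmp8 at 0 in all sham libraries and Mpo at 0 in all nivolumab libraries. Endothelium markers (13 of 15) summed to 115 to 172 CPM in sham, 60.2 to 272 in cancer and 112 to 152 in nivolumab. The lowest of both sums in the cancer group, 8.47 and 60.2 CPM, were in cancer 3, the library with the lowest level of all 10 members in that group. Macrophage markers (12 of 12) summed to 282 to 323 CPM in sham, 81.4 to 396 in cancer and 166 to 364 in nivolumab, with 81.4 in cancer 3. Pericyte and smooth muscle markers (10 of 10) summed to 1207 to 17562 CPM in sham, 6306 to 19036 in cancer and 2908 to 4422 in nivolumab. Cancer 3 had the highest of these, 19036, and cancer and nivolumab did not overlap. The part of these cell types in the members' colon levels was not tested.

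**Figure D3:**
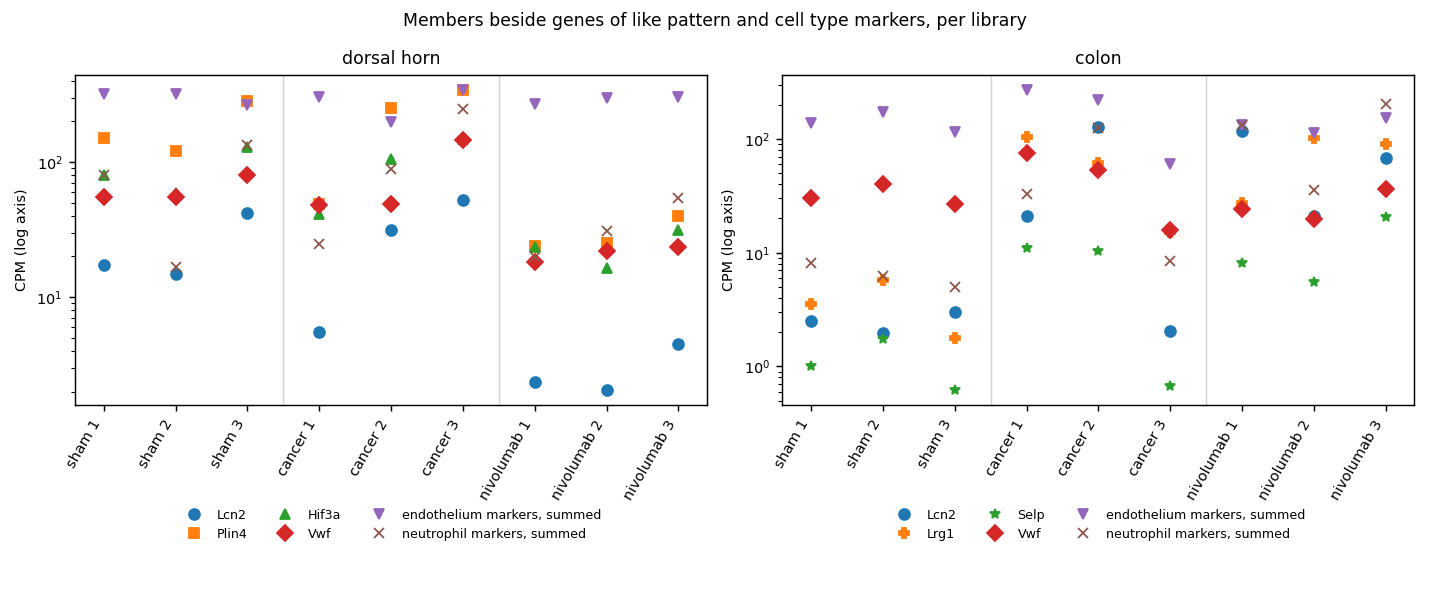
Lcn2 and Vwf per library beside Plin4 and Hif3a in dorsal horn and beside Lrg1 and Selp in colon, with the summed endothelium and neutrophil markers, in CPM on a log axis. In dorsal horn the endothelium sum stays between 196 and 339 CPM while Vwf is at 18.1 to 23.4 in nivolumab, and in colon the library cancer 3 is low in most series.

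Between tissues, the sham libraries differed for 5 of the 10 members by edgeR, where 75.2% of all 14164 genes in the joint fit did (38.2% higher and 37.0% lower in colon). Pla2g4e (log2 difference of colon from dorsal horn −7.63, SE 1.51, adjusted p = 0.000332) and Lcn2 (−3.30, SE 1.14, adjusted p = 0.0166) were lower in colon. Selp (3.77, SE 1.23, adjusted p = 0.0143), Ptgs2 (1.79, SE 0.48, adjusted p = 0.0037) and Icam1 (1.22, SE 0.38, adjusted p = 0.00932) were higher in colon. Pla2g4e had 0, 5 and 0 counts in sham colon, and Selp had 0, 6 and 0 in sham dorsal horn. Both passed the filter only through the other tissue. Their calls, counted among the 5, therefore follow from the filter and are given no weight here. Their sizes are uncertain as well: −11.4 for Pla2g4e without colon sham 2 and 7.88 for Selp without dorsal horn sham 2. The calls of Lcn2 and Selp were lost without dorsal horn sham 3 (adjusted p = 0.0570 and 0.0507). Vwf missed the threshold (−0.97, SE 0.47, adjusted p = 0.0740) and passed it under DESeq2 (adjusted p = 0.0400), in a fit of the sham libraries alone (0.00499), and without colon cancer 3 (0.0260) or dorsal horn cancer 3 (0.0362). The difference was −0.73 (SE 0.70, adjusted p = 0.353) for Lrg1, −0.33 (SE 0.31) for Vcam1, −0.09 (SE 1.09) for Ch25h and −1.38 (SE 1.69) for Sele.

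**Figure D4:**
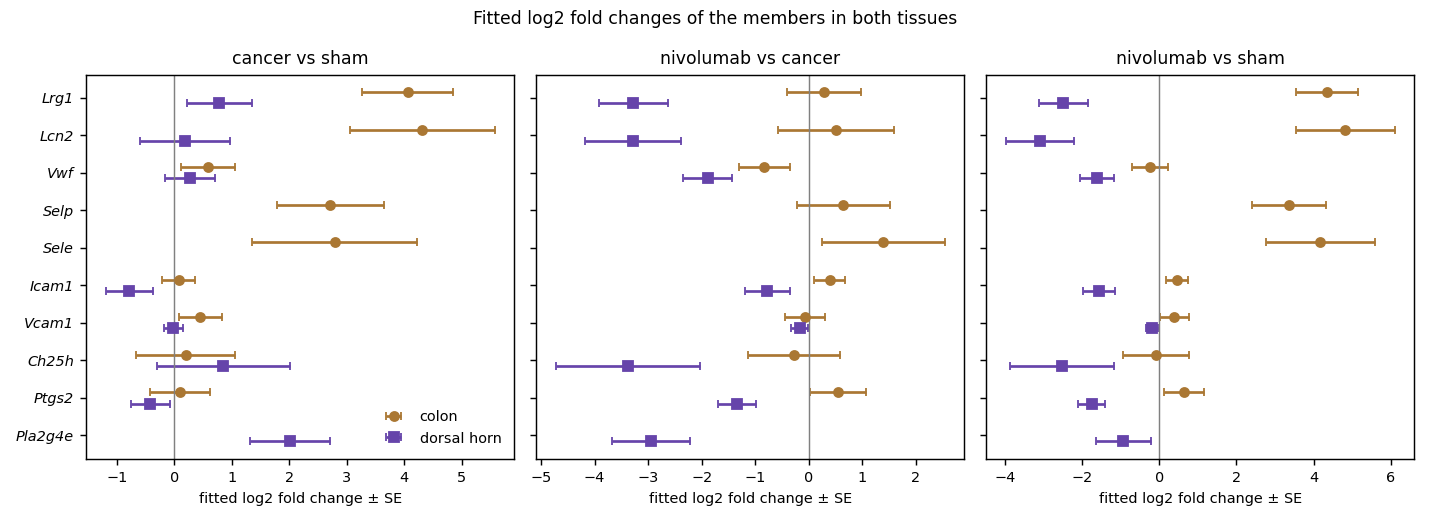
Fitted log2 fold changes of the members with standard errors for each contrast, dorsal horn and colon side by side. Against sham, Lrg1 in nivolumab is at −2.50 in dorsal horn and at 4.34 in colon. Selp and Sele in dorsal horn and Pla2g4e in colon did not pass the filter and have no point.

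Levels per kilobase of exon (CPM per kb) placed the members in a different order in each tissue and group. In sham dorsal horn the order was led by Lcn2 (9.46 ± 5.79, SD, n = 3), Lrg1 (4.25 ± 1.75) and Vwf (3.93 ± 0.894), whose ranges do not separate beyond their spread. In nivolumab dorsal horn Vcam1 came first and Vwf second (1.31 ± 0.171). In sham colon Icam1 came first (3.91 ± 0.418), then Lrg1 (2.62 ± 1.42), and Lcn2 stood seventh (0.952 ± 0.196). In cancer and nivolumab colon Lrg1 (42.6 ± 31.4 and 52.1 ± 28.6) and Lcn2 (19.1 ± 25.7 and 26.3 ± 18.3) headed the order.

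Of the pathway genes around the members, 130 were listed in 6 groups, 110 of them tested in colon and 100 in dorsal horn. None passed edgeR's test in colon. The 12 tested acute-phase genes all had positive log2 differences in colon for cancer against sham (median 2.27, where the median of all genes was 0.002) and for nivolumab against sham (median 2.59, all genes 0.03), and split 6 and 6 for nivolumab against cancer (median 0.01). Steap4, a metalloreductase, was at 74.7 ± 21.5 CPM in cancer and 16.2 ± 6.52 in sham colon (edgeR adjusted p = 0.172), with no overlap. Hp, which encodes haptoglobin, was at 45.7 ± 16.6 CPM in nivolumab and 1.64 ± 0.998 in sham (adjusted p = 0.512).

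Of the cytokine and signalling genes in colon, 25 of 26 were positive in cancer against sham (median 0.84, all genes 0.002). In nivolumab against sham 23 of 26 were (median 0.60, all genes 0.03). Both contrasts use the same 3 sham libraries, so these counts and those of the acute-phase genes are not 2 separate results. Tnf was at 5.65, 5.69 and 5.59 CPM in sham, 21.6, 31.6 and 18.4 in cancer, and 12.6, 13.4 and 23.0 in nivolumab. It had the smallest adjusted p of the listed genes in cancer against sham (log2 difference 2.10, SE 0.29, edgeR adjusted p = 0.0748). Socs3, a STAT3 target that restrains the pathway, was at 166.8 ± 89.4 CPM in cancer and 44.1 ± 9.03 in sham (adjusted p = 0.181), and it was the 1 listed gene called when the library cancer 3 was left out. Vessel and haemostasis genes had a median of 0.35 over 22 in cancer against sham, leukocyte counter-receptors 0.003 over 12, prostaglandin and oxysterol genes −0.14 over 28 and receptors or partners of the 3 secreted members 0.33 over 10.

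In dorsal horn the listed pathways showed few changes between cancer and sham: 1 of 100 genes passed edgeR's test (0.323% of all genes, 0.0955% higher and 0.228% lower), Plat, which encodes tissue plasminogen activator, and it was lower in cancer (53.4 ± 4.80 CPM, log2 difference −0.83, adjusted p = 0.0241). The call of Plat was lost in 5 of 15 alternatives. Nivolumab against cancer called 14 of 100 (10 higher and 4 lower, where 17.2% of all genes were called, 8.63% higher and 8.60% lower). Nivolumab against sham called 9 of 100 (all higher, where 8.51% of all genes were called, 4.67% higher and 3.84% lower): Il6st, Stat3, Itgb1, Itgb3, Cd47, Ptges3, Ptger1, Ptger3 and Fgg. The share of pathway genes called was near that of all genes. The balance of directions against cancer depended on single libraries, with 9 higher and 12 lower without cancer 1, and 5 higher and 0 lower without nivolumab 1. Fgg, at 0 counts in every sham library, passed the filter only through the nivolumab libraries, so its call follows from the filter.

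The genes called lower in nivolumab than in cancer included an acute-phase gene and a transcription factor of that response. Itih3, a heavy chain of inter-alpha-trypsin inhibitor, was at 348, 277 and 541 CPM in sham, 292, 342 and 649 in cancer, and 150, 163 and 173 in nivolumab (log2 difference −1.36, SE 0.35, edgeR adjusted p = 0.0404). Cebpd, which encodes C/EBP delta, fell from 8.13 ± 3.58 to 3.13 ± 0.443 CPM (adjusted p = 0.0469), and Plvap, the diaphragm protein of fenestrated endothelium, from 22.8 ± 9.63 to 9.23 ± 1.02 (adjusted p = 0.0228). Without cancer 3 the calls of Itih3, Cebpd and Plvap were each lost, as they were without each of several other libraries. Slc22a17, a lipocalin-2 receptor, was lower by 0.31 on the log2 scale (523 ± 17.1 to 412 ± 37.3 CPM, adjusted p = 0.0173), and its call was lost in 3 of 15 alternatives (without cancer 2, nivolumab 1 or nivolumab 3).

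Receptors and integrins were among the genes higher in nivolumab. Il6st, the shared signalling chain of interleukin-6 receptors, was at 273 ± 30.4 CPM in nivolumab and 161 ± 18.3 in cancer (edgeR adjusted p = 0.00274), and Stat3 was at 176 ± 18.7 and 123 ± 22.6 (adjusted p = 0.0208). Itgb1, the beta-1 integrin chain that pairs with alpha-4 to bind VCAM-1, was at 177 ± 17.6 and 96.4 ± 7.78 CPM (adjusted p = 0.00149), and Itgb3, part of a von Willebrand factor receptor of platelets, at 13.9 ± 0.753 and 5.60 ± 0.653 (adjusted p = 0.00472). Among prostaglandin genes, Ptges3, Ptger1, Ptgfr and Ptger3, a synthase and 3 receptors, were higher by 0.45, 0.68, 1.55 and 1.66 on the log2 scale (adjusted p from 0.00644 to 0.0347). The calls of Il6st, Itgb1, Itgb3, Ptges3 and Plat (0.57 higher in nivolumab, adjusted p = 0.00889) held in all 15 alternatives, and those of Ptger1, Ptgfr, Ptger3, Stat3 and Cd47 (0.38 higher) were lost in 4 or 5 of them. Markers of other cells differed in the same libraries. Beside the ganglion markers given above, Schwann cell markers (9 of 10 in the table) summed to 1366 to 1683 CPM in nivolumab, 390 to 905 in cancer and 535 to 1234 in sham, with 3 of 9 called higher in nivolumab than in cancer. Oligodendrocyte markers (10 of 10) summed to 45087 to 50465 CPM in nivolumab, 26936 to 37878 in cancer and 47444 to 57436 in sham, with 3 of 10 called higher in nivolumab than in cancer. Astrocyte markers (8 of 8) summed to 5431 to 6308 CPM in nivolumab, 4558 to 6396 in cancer and 4970 to 7005 in sham, with S100b called higher and Fgfr3, Slc1a3 and Slc1a2 called lower in nivolumab than in cancer. Of the neuron markers, Nefl and Stmn2 were called higher and Gad2, Gad1, Slc32a1, Snap25 and Slc6a5 lower in nivolumab than in cancer. Of the fibroblast markers (9 of 10 in the table), Col3a1 and Lum were called higher and Pdgfra lower. Skeletal muscle markers (8 of 10) summed to 184 to 946 CPM in nivolumab, 84.1 to 360 in cancer and 86.9 to 234 in sham, with 0 called. The part of these cells in the members' and pathway genes' levels was not tested.

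The genes most like each leading member were sought over the 9 dorsal horn libraries by Pearson's r of log2 CPM. Libraries share group, tissue composition and depth, and r is given as a description. For Lcn2 they were Plin4 (0.998), a lipid droplet coat protein, Hif3a (0.992), a hypoxia-inducible factor subunit, Timp4 (0.987), an inhibitor of matrix metalloproteinases, Susd4 (0.984) and Rcan2 (0.983). Plin4 was at 150, 121 and 283 CPM in sham, 49.1, 252 and 344 in cancer, and 24.0, 24.9 and 40.1 in nivolumab. As for Lcn2, sham 3, cancer 2 and cancer 3 were its highest libraries, and cancer 1 lay below all sham libraries.

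For Vwf the most like genes were Nudcd3 (0.981), Itih3 (0.976), Lrg1 (0.968), Gstm1 (0.967), a glutathione transferase, and Asb13 (0.965). For Lrg1 they were Carmil1 (0.981), Tacc1 (0.978), Nudcd3 (0.975), Galt (0.974) and Tubgcp2 (0.974), each with smaller differences between groups than Lrg1 itself. Tacc1, for example, was at 187 ± 9.31 CPM in sham, 209 ± 12.6 in cancer and 162 ± 7.42 in nivolumab. For Pla2g4e they were Sfmbt2 (0.982), Calr3 (0.971), Fcho1 (0.969), Fbxl21 (0.969) and Fam32a (0.966), so that none of the 5 nearest genes of Pla2g4e was among those of Lrg1, Lcn2 or Vwf.

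The genes lie at separate places in the mouse genome (GRCm38, GENCODE M21), except for a selectin pair and 2 genes far apart on chromosome 2. Lrg1 spans chr17:56119678-56122001, Lcn2 chr2:32384633-32388252, Vwf chr6:125546774-125686679, Icam1 chr9:21015985-21028817, Vcam1 chr3:116109949-116129688 and Ch25h chr19:34473778-34475164. Sele (chr1:164048234-164057677) and Selp (chr1:164115264-164150026) are neighbours, and Ptgs2 lies elsewhere on the same chromosome (chr1:150100031-150108227). Pla2g4e (chr2:120166412-120245335) sits among Pla2g4 paralogs. Whether any reads were shared between them in the authors' counting, which would make its level less certain, was not examined.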

How the data were processed

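RNA from colon and spinal dorsal horn was sequenced on an Illumina NovaSeq. The deposited values are raw read counts per gene symbol, made by the authors; the submitters' processing notes name FastQC 0.11.5, Trimmomatic, HISAT2, StringTie and GRCm38, and the counting step and its strand setting are not stated in them. Groups and replicate numbers came from the labels, and 0 columns of per-sample values were left without a sample. No 2 libraries of a group agreed within sampling noise.

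CPM in the text is a count divided by the library's total. Tests used edgeR 4.0.16 in R 4.3.3: TMM scaling, filterByExpr by group, a quasi-likelihood fit of the 9 libraries of a tissue, and Benjamini-Hochberg adjustment over all genes tested (threshold 0.05). The tissues were compared in a joint fit of 18 libraries. The code was tested on simulated data. DESeq2 1.42.0, RLE factors, no filter, 2-group fits, a replicate block and leaving out libraries were the alternatives. Non-overlap means that all 3 libraries of a group lie beyond all 3 of the other. Correlations used log2 CPM with a prior count of 2. Promoters came from RefSeq and gene lengths from GENCODE M21.

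The members and gene lists were chosen with earlier results of these data known. Named genes are the members, up to 4 called genes per list and contrast (or 1 or 2 of the smallest p where none was called), and for each of 4 members the 5 genes of highest correlation. Per-library values of Tnf, Itih3 and Plin4 are shown as examples chosen after they were seen.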

Additional observations from a re-analysis of the deposited data

Results flagged for a closer look

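Lrg1 and Lcn2 went opposite ways in the tissues when nivolumab was set against sham. Every nivolumab library was above every sham library in colon and below every sham library in dorsal horn. The log2 fold change in colon minus that in dorsal horn was 6.84 for Lrg1 and 7.92 for Lcn2. Low dorsal horn levels after nivolumab were part of how these genes were chosen, so the difference between tissues was not tested. In colon neither gene passed edgeR's test.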

How the results depend on the processing

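With 3 libraries per group, calls depended on the fit, and levels near the floor of 3 counts (Selp and Sele in dorsal horn, Sele and Pla2g4e in colon) allow no firm comparison. The cause of the following changes was not tested. In colon, where edgeR called none, DESeq2 called 3 members in cancer against sham and 3 in nivolumab against sham, and it called 15 pathway genes for cancer against sham, 3 for nivolumab against cancer (Il11, Itgb1 and Pla2g4d) and 12 for nivolumab against sham. A fit of the 2 groups alone called 1 pathway gene, Pla2g4c, in nivolumab against sham. In dorsal horn, pathway genes called numbered 1, 14 and 9 in the same contrasts. They were 22 and 18 under DESeq2 in the contrasts with nivolumab, 0 and 15 in fits of the 2 groups alone for cancer against sham and nivolumab against sham, and 15 for nivolumab against sham without the sham and cancer libraries 3. Leaving out each library in turn gave 0 to 1 pathway genes in colon for cancer against sham (Socs3, without cancer 3). In dorsal horn it gave 0 to 2 for cancer against sham (Plvap and Plat without cancer 1, and none without sham 1, sham 2, nivolumab 1 or nivolumab 2), 5 (without nivolumab 1) to 21 for nivolumab against cancer, and 3 (without nivolumab 1) to 14 for nivolumab against sham. Nivolumab against cancer also dropped to 7 without cancer 2 and to 6 without nivolumab 3. Nivolumab against sham dropped to 4 without sham 1 or nivolumab 3 and rose to 14 without cancer 1. Members called between sham tissues ranged from 3, without dorsal horn sham 3, to 6. No fitted direction of a called result was turned.

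Replicate numbers are shared between groups, but the labels do not say that they pair animals. Same-numbered libraries of different groups correlated in their deviations from −0.44 to 0.46 in colon and from −0.08 to 0.53 in dorsal horn. Pairs of different number ran from −0.55 to 0.47 in colon and from −0.50 to 0.47 in dorsal horn. In colon r was over 0.1 in 3 of 9 same-numbered pairs and 7 of 18 others. In dorsal horn it was so in 6 of 9 and 5 of 18. In the same order of tissues, 3 and 5 of 9 libraries correlated best with their own number. With the replicate block, 29 pathway genes were called in dorsal horn for nivolumab against cancer and 18 for nivolumab against sham. It also raised the count over all genes in dorsal horn for cancer against sham from 44 to 115, and in colon from 0 to 1. No other count of members or pathway genes called changed by more than 1.5 times under the block.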

Other observations

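In colon, Steap4 did not follow Lrg1 and Lcn2 across the cancer libraries. It was at 19.4, 20.4 and 8.65 CPM in sham, 69.8, 56.1 and 98.2 in cancer, and 19.9, 38.6 and 59.7 in nivolumab. Cancer 3, which had the lowest Lrg1 and Lcn2 of its group, had the highest Steap4 of all 9 libraries. Steap4 in cancer was above sham in every library, and its edgeR adjusted p was 0.172.

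Fgg, which encodes the gamma chain of fibrinogen, had no count in any sham dorsal horn library, 14 counts over the cancer libraries and 41 over the nivolumab libraries. It passed the expression filter only through the nivolumab libraries, so its call against sham follows from the filter and is given no weight here.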
